A study of Mus musculus with 6 samples.

Results

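The 10 genes described here drive entry into the cell cycle in G1 or belong to the Myc network: the D-type cyclin genes Ccnd1, Ccnd2 and Ccnd3, the E-type cyclin gene Ccne1, the cyclin-dependent kinase genes Cdk4 and Cdk2, the retinoblastoma gene Rb1, and Myc, Mycn and Max. They were chosen by name and all 10 were found among 12331 gene rows. Expression was measured by RNA-seq in 6 libraries of the mouse line E14tg2a, established from embryonic stem cells and grown in serum medium with LIF, a cytokine that prevents differentiation. All libraries came from 10 pg of total RNA, an amount near that of one cell, reverse transcribed from oligo(dT) and amplified by PCR, so none was made from a sorted cell. The amplified cDNA was fragmented either by sonication (3 libraries) or by tagmentation, in which hyperactive Tn5 transposase cuts DNA and attaches adaptors in one step (3 libraries). The question of the series was how both ways of preparing a library compare. Each method has libraries numbered 1, 2 and 3, and the replicates are technical. The p-values below therefore rest on differences between these libraries, not between cultures. Where the replicate number is a term of a test, its error comes only from differences between methods within a number.

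In G1, growth signals raise D-type cyclins, which bind Cdk4 and start to phosphorylate the retinoblastoma protein. Cyclin E with Cdk2 completes this step, E2F factors are released, and DNA replication genes are switched on. Myc and its relative Mycn bind DNA as partners of Max and drive growth genes, and cell cycle genes are among their targets. Embryonic stem cells are known for a short G1, for high cyclin E and Cdk2 activity throughout the cycle, and for a role of Myc in self-renewal downstream of LIF.

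Values are RPKM, read numbers divided by gene length and by the depth of each library. Levels of different genes are set side by side on this scale. It does not correct for differences between genes in oligo(dT) priming or PCR amplification. The libraries held 18852822 to 34681566 alignments and had 1 RPKM or more in 44.0% to 55.2% of all gene rows. Of the 10 members, 7 or 8 reached 1 RPKM in each library. The summed level of 8 stem cell markers, among them Pou5f1 and Zfp42, was 1384 to 2819 RPKM, lowest in sonication library 3, and Nanog was listed at 0 in both libraries numbered 3. Dppa5a gave 1739 RPKM of the sum in sonication library 1 and 455 RPKM in sonication library 3. The markers did not move together. Zfp42 was lowest in sonication library 1 (164 RPKM) and highest in tagmentation library 3 (444 RPKM), and Sox2 and Tdgf1 were lowest in number 2. Of 8 fibroblast markers 5 were in the table, with 43.9 to 90.0 RPKM in sum. The smooth muscle actin gene Acta2 made up 41.3 to 78.0 RPKM of this, and the 3 collagen genes were below 1 RPKM in all libraries. Thy1, the remaining gene of this list, changed with the replicate number. Its level was highest in number 1 (sonication 12.1 RPKM, tagmentation 9.55 RPKM). It was lowest in number 3 (sonication 0.0611 RPKM, tagmentation 0.0831 RPKM). Of 10 germ layer markers 5 were in the table, with a sum of 66.7 and 91.0 RPKM in the libraries numbered 2 and 1.11 to 13.8 RPKM in the others. The mesoderm gene T led this sum, with 61.3 and 83.2 RPKM in number 2. The part of these differences in the results below was not tested. The replicates are technical, and each library was amplified from 10 pg of RNA. A difference between numbers was therefore not read as one in the mix of cells. For the level of a marker in RNA prepared from many cells, fewer cells of a type and less RNA per cell cannot be told apart either.

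Cdk4 was the most abundant member by far, Ccne1 and Ccnd3 followed, and Cdk2, Rb1 and Ccnd2 were lowest. Mean levels over the 6 libraries were 490 RPKM for Cdk4, 108 for Ccne1, 75.3 for Ccnd3, 37.4 for Myc, 36.0 for Ccnd1, 25.7 for Mycn, 16.5 for Max, 1.94 for Cdk2, 0.140 for Rb1 and 0.115 for Ccnd2. Cdk4 stood above Ccne1, Ccne1 above Ccnd3 and Ccnd3 above Myc in 6 of 6 libraries. The next neighbours were not separated by their spread: Myc was above Ccnd1, Ccnd1 above Mycn and Mycn above Max in 4 of 6 libraries each. Max stood above Cdk2 in 6 of 6, Cdk2 above Rb1 in 4 of 6 and Rb1 above Ccnd2 in 2 of 6 libraries. Same-numbered libraries of the methods resemble each other, so these counts hold fewer than 6 separate observations.

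**Figure D1:**
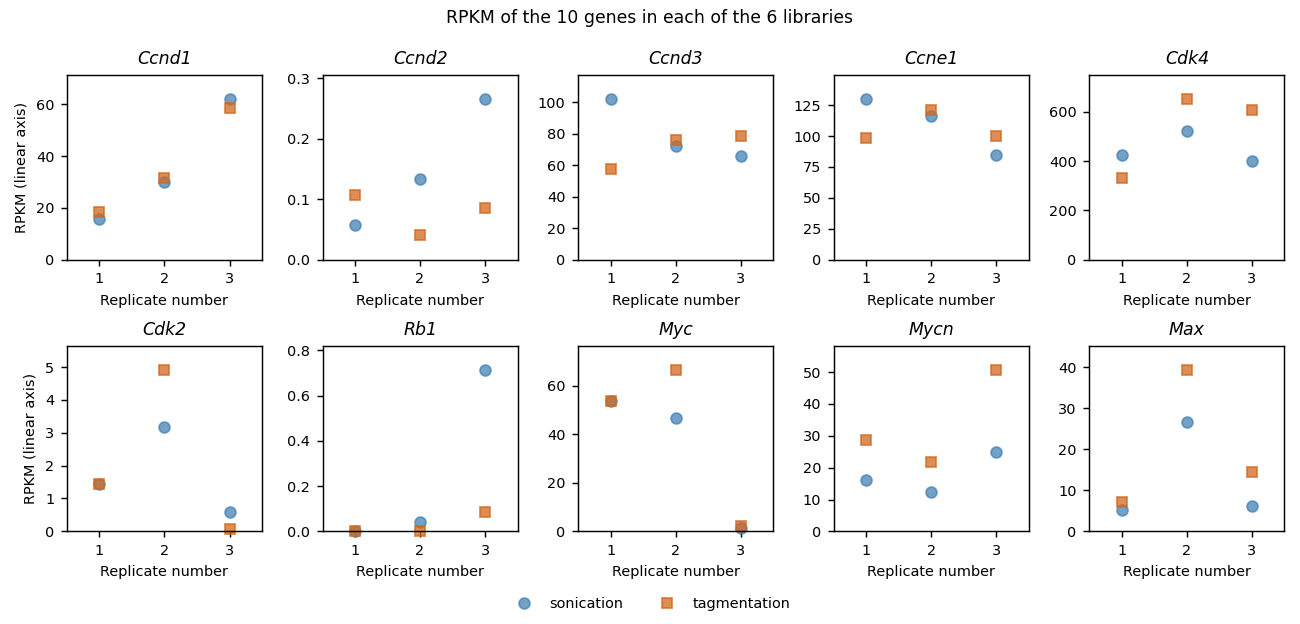
RPKM of each of the 10 genes (vertical linear axes, each with its own scale) against replicate number, with circles for sonication and squares for tagmentation libraries. Each point is 1 library. Ccnd1, Myc and Max change level between numbers alike in both methods, while Ccnd3 and Ccne1 keep a narrow range.

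The D-type cyclins, the sensors of growth signals, differed sharply from each other. Ccnd3 had 102, 72.4 and 65.5 RPKM in sonication libraries 1, 2 and 3, and 57.5, 75.8 and 78.2 RPKM in tagmentation libraries 1, 2 and 3. Its highest and lowest values were thus the libraries numbered 1, and the methods overlapped. Ccnd1 had 15.7, 29.8 and 62.2 RPKM after sonication and 18.5, 31.4 and 58.5 RPKM after tagmentation. Both methods gave Ccnd1 its highest level in number 3 and its lowest in number 1. Ccnd2 stayed below 1 RPKM in every library, at 0.0572, 0.134 and 0.267 RPKM after sonication and 0.107, 0.0401 and 0.0849 RPKM after tagmentation. These values rest on 8 to 29 reads per library, against 1477 to 7696 reads for Ccnd1, and Ccnd2 was not tested. PCR copies were not told apart by molecular identifiers, so read numbers bear on counting error only.

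Set together, the D-type cyclins summed to 118, 102 and 128 RPKM after sonication and 76.1, 107 and 137 RPKM after tagmentation. This sum spanned 1.80-fold over the 6 libraries while Ccnd3 alone spanned 1.78-fold and Ccnd1 alone 3.96-fold. The share of Ccnd1 in the sum was 13.3% and 24.3% in number 1, 29.1% and 29.3% in number 2, and 48.6% and 42.7% in number 3 (sonication first). Ccnd3 supplied nearly all of the rest, and Ccnd2 at most 0.208%. The main D-type cyclin transcript was therefore Ccnd3 in 6 of 6 libraries, by a narrow margin in sonication library 3.

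**Figure D2:**
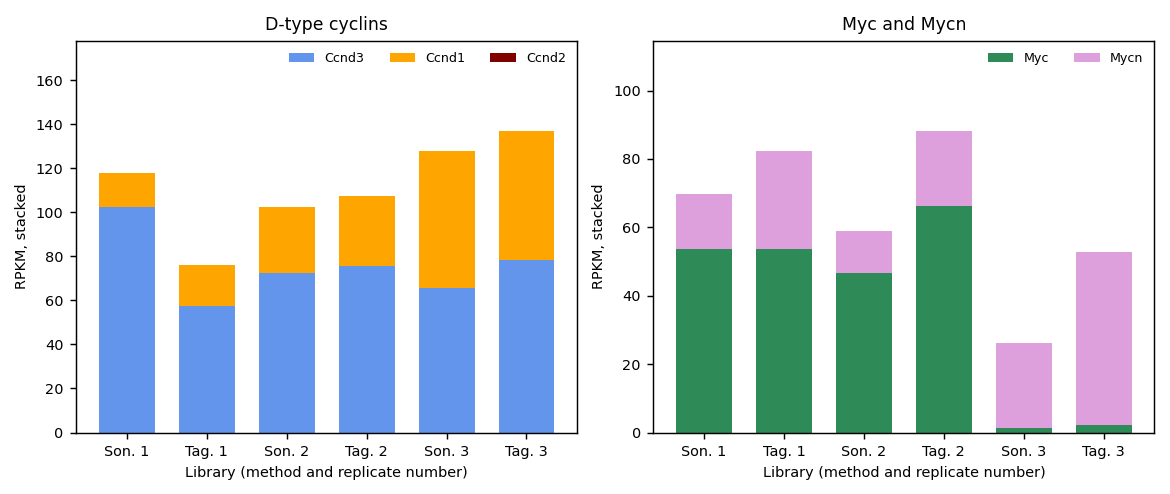
Stacked RPKM of the D-type cyclins (left) and of Myc and Mycn (right) in each library, ordered by replicate number with sonication (Son.) before tagmentation (Tag.). The Ccnd1 part is largest in number 3 (48.6% and 42.7% of the sum), Ccnd2 is too low to see, and in number 3 the Myc part falls to 5.14% and 4.28%.

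Cdk4, the kinase partner of the D-type cyclins, had 423, 521 and 401 RPKM after sonication and 333, 653 and 607 RPKM after tagmentation. All 6 values lay within 1.96-fold of each other, and the mean ranked above 99.1% of gene rows. Cdk4 has been described as a Myc target. Its promoter window holds the E-box letters CACGTG, the site that Myc and Max dimers bind, 4 times. The sequence below runs from 190 bases before the start site to the base before it (RefSeq, GRCm38.p6, chr10:127063345-127063534, plus strand), with each CACGTG in capitals.
Cdk4: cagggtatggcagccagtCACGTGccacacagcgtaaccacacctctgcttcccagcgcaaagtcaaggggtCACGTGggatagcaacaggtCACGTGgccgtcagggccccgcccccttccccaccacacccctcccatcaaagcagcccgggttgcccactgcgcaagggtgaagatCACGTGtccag
Windows from 250 bases before to 50 after the start site were available for 6 of the 10 members. CACGTG, which reads the same on both strands, occurred at least 1 time in 7.15% of all 32851 such windows and at least 4 times in 0.0244%. The cutoff of 4 equals the number in Cdk4, so this share is not a test. Among the members' windows CACGTG was also found 1 time in Max and not in those of Ccne1, Ccnd3, Cdk2 or Mycn. The last bases of the Max window, unlike those of the others, were not found in a GENCODE transcript of the gene. Its start site is therefore less sure. A match describes letters only, and binding was not measured.

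Ccne1, which encodes cyclin E1, was abundant and even, with 130, 116 and 84.4 RPKM after sonication and 98.7, 121 and 99.8 RPKM after tagmentation. Its values lay within 1.54-fold and rested on 3114 to 8213 reads per library. Its kinase partner Cdk2 was far lower, with 1.45, 3.19 and 0.601 RPKM after sonication and 1.43, 4.90 and 0.0628 RPKM after tagmentation. Both methods put Cdk2 highest in number 2 and lowest in number 3, and the methods differed most in number 3. The ratio of Ccne1 to Cdk2 was 24.8 to 140 in 5 libraries and 1588 in tagmentation library 3, so the cyclin transcript exceeded that of its kinase in every library. The ratio of 1588 rests on the Cdk2 value of 0.0628 RPKM. The reads behind Cdk2 are unknown, so the size of this ratio is uncertain. Rb1, the pocket protein that these kinases inactivate, was listed at 0 in sonication library 1 and in tagmentation libraries 1 and 2. At these depths 3 reads would have given 0.0187 to 0.0309 RPKM. This floor reflects sequencing depth only and does not cover molecules lost before amplification. Elsewhere Rb1 had 0.0393 and 0.711 RPKM in sonication libraries 2 and 3 and 0.0873 RPKM in tagmentation library 3, from 4, 62 and 14 reads. Ccnd2 and Rb1 failed the filter for testing (1 RPKM or more in at least 3 libraries), which left 8 members.

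Myc was present at a high level in the 4 libraries numbered 1 and 2 and nearly lost in those numbered 3. It had 53.7, 46.8 and 1.35 RPKM after sonication and 53.7, 66.4 and 2.26 RPKM after tagmentation. The libraries numbered 3 were thus low in both methods, and the mean of number 2 exceeded that of number 3 by 31.3-fold. Mycn did not follow this pattern, with 16.1, 12.3 and 24.9 RPKM after sonication and 28.8, 21.8 and 50.6 RPKM after tagmentation. It was highest in number 3, where Myc was lowest, and Mycn then made up 94.9% and 95.7% of the sum of both, against 20.8% to 34.9% in the other libraries. Their sum in number 3 was 26.3 RPKM (sonication) and 52.8 RPKM (tagmentation), below the 59.1 to 88.1 RPKM of the rest. Over the same libraries Cdk4 had 401 and 607 RPKM in number 3, within its range elsewhere. Whether the levels of Mycn or Cdk4 are linked to that of Myc was not tested.

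Max, the shared partner of Myc and Mycn, had 5.28, 26.7 and 6.22 RPKM after sonication and 7.19, 39.3 and 14.5 RPKM after tagmentation, with number 2 highest in both. The ratio of Max to the sum of Myc and Mycn was below 1 in all 6 libraries, from 0.0757 to 0.453. The E2F factors released from Rb bind letters such as TTTCCCGC, TTTGGCGC, TTTCGCGC and TTTGCCGC. On both strands these were found in 2.26% of all windows, 1 time in that of Cdk2 and 3 times, in part overlapping, in that of Mycn. At least 3 matches, a cutoff equal to the number in Mycn, occurred in 0.0122% of all windows, so this share is not a test either. The stretches that hold them are given to show how close the Mycn matches lie (RefSeq, GRCm38.p6, minus strand, Mycn at chr12:12941977-12942036 and Cdk2 at chr10:128705152-128705211), with the matches in capitals.
Mycn: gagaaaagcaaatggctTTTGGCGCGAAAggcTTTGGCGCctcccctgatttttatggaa
Cdk2: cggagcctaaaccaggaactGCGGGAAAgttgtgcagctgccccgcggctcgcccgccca
The windows of Cdk4, Max, Ccne1 and Ccnd3 held none of these letters.

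Between methods, no member was called. Limma's test on log2(RPKM + 1), adjusted by Benjamini-Hochberg over all 6327 genes tested, called 0 of 8 members and 0% of all genes at an adjusted p under 0.05. At an unadjusted p under 0.05 it found 0 members and 18 genes (0.284%). This fit counts the differences between replicate numbers as error, so its lack of calls does not show that the methods gave equal levels. The median log2 difference, tagmentation minus sonication, was 0.13 for the 8 members and 0.028 for all genes tested. Blocked on the replicate number, since same-numbered libraries pair, limma called 208 genes (3.29%) and again 0 of 8 members, with 2 members and 1061 genes (16.8%) at an unadjusted p under 0.05. The 2 members were Mycn and Max. The libraries of both methods overlapped for every tested member, while they did not overlap for 2.4% of all genes.

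Mycn came nearest to a difference between methods. It was 1.79-, 1.77- and 2.03-fold higher after tagmentation in numbers 1, 2 and 3, a mean log2 difference of 0.86 ± 0.12 (SD of the 3 pair differences). Its adjusted p was 1.00 without the block (SE 0.74) and 0.0790 with it (SE 0.29), so it did not pass. An exact sign-flip test over 3 pairs cannot go below 0.25. Max was higher in 3 of 3 pairs too, by 1.36-, 1.47- and 2.34-fold (log2 0.68, SE 0.29, adjusted p 0.201 with the block in limma). The other tested members were not higher or lower in all 3 pairs. Ccnd1 had pair differences of 0.22, 0.074 and -0.088, and Myc had -0.0010, 0.50 and 0.47. Ccnd3 had -0.82 in number 1 against 0.066 and 0.25, and Cdk2 had -0.013, 0.49 and -0.59. Over the 8 members the median absolute pair difference was 0.39, and over all genes tested 0.34.

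**Figure D3:**
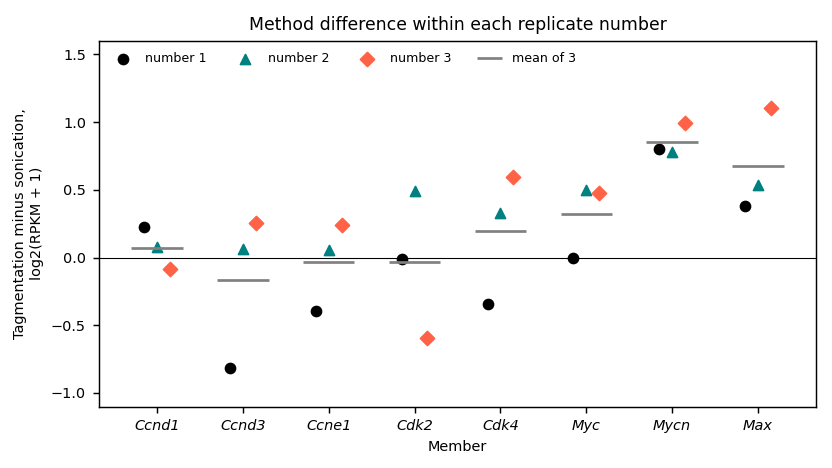
Difference between tagmentation and sonication in log2(RPKM + 1) for the 8 tested members (horizontal axis), with 1 symbol per replicate number and a grey line at the mean of the 3. Mycn (0.78 to 0.99) and Max (0.38 to 1.11) lie above 0 in all 3 numbers, and the 3 values of Ccnd1 lie between -0.088 and 0.22.

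Between replicate numbers, Myc, Max, Cdk2, Ccnd1 and Mycn differed, while Ccnd3, Ccne1 and Cdk4 did not pass the test. The test was limma's F test of the number with method as a term, so its error is the difference between methods within a number. It was planned only for the case that same-numbered libraries deviate together, which these data had shown. The share of all genes called is therefore no separate evidence of that pairing. The F test called 5 of 8 members (62.5%), against 88.1% of all genes tested. They were Myc (range between the highest and lowest number 4.36 in log2, adjusted p 1.32e-29), Max (2.22, adjusted p 8.34e-09), Cdk2 (1.93, adjusted p 3.25e-07), Ccnd1 (1.76, adjusted p 1.75e-05) and Mycn (1.07, adjusted p 0.0134). Myc and Max differed by 4-fold or more on this scale, 2 of 8 members (25.0%), against 58.5% of all genes. Ccnd3 (0.097, adjusted p 0.966) and Ccne1 (0.37, adjusted p 0.578) were not called. Nor was Cdk4 (0.64, adjusted p 0.237), but it was after median-ratio scaling (0.89, adjusted p 0.0142) and quantile normalization (0.42, adjusted p 0.0342). The fit had 2 residual degrees of freedom per gene and 210 prior ones shared over genes of similar expression, so each p-value depends mostly on the shared spread.

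These calls rest on particular numbers. Without number 3, Myc had a range of 0.053 (adjusted p 0.913), Ccnd1 one of 0.81 (adjusted p 0.0518) and Mycn one of 0.38 (adjusted p 0.382), and none of them was called. Without number 2, Max had a range of 0.56 (adjusted p 0.411) and Mycn one of 0.70 (adjusted p 0.349). Cdk2 was called with any 1 number left out, with ranges of 0.90 without number 2 and 1.03 without number 3. Its range was 0.76 with a pseudocount of 5 and 3.59 with one of 0.1. Of all genes with a mean of 100 RPKM or more, which include Cdk4 and Ccne1, 57.7% were called, against 89.4% at 10 to 100 RPKM, which include Ccnd3, and 94.1% below 10 RPKM. The median range over the tested members was 1.42 and over all genes 2.38.

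**Figure D4:**
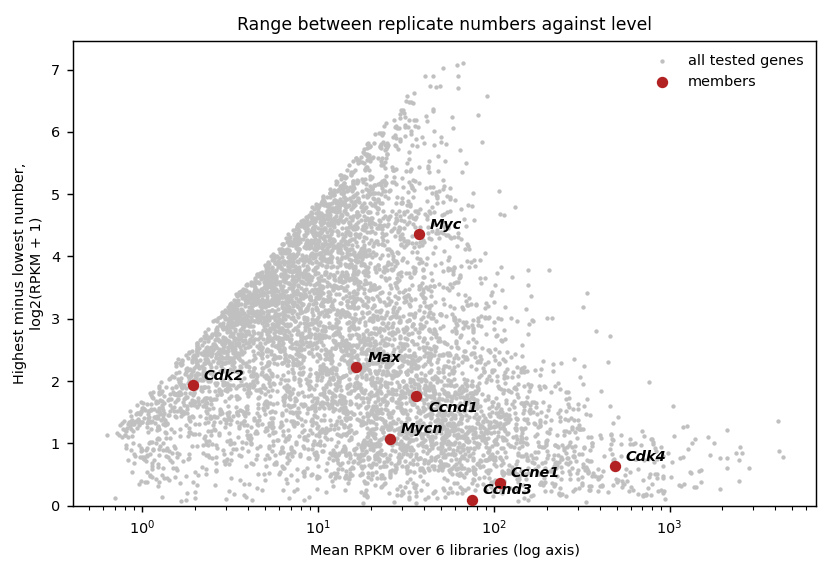
Range between the highest and lowest replicate number in log2(RPKM + 1) against mean RPKM over the 6 libraries (log axis), with grey points for all 6327 tested genes and red points for the 8 tested members. Myc stands at 4.36, while Ccnd3, Ccne1 and Cdk4 lie between 0.097 and 0.64.

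Patterns most like a member's over the 6 libraries, by Pearson's r of log2(RPKM + 1), were those of Parl for Myc (0.999), Arl8a for Max (0.998), Iqcb1 for Cdk2 (0.998) and Zc3h4 for Ccnd1 (0.997). They were Jup for Ccnd3 (0.996), Srrt for Ccne1 (0.990), Oaz1 for Cdk4 (0.987) and Rbmxl2 for Mycn (0.979). An r of 0.95 or more was shared with Myc by 476 genes, with Ccnd1 by 167 and with Ccnd3 by 3. The 6 libraries resemble each other in same-numbered pairs, so these values describe few separate points.

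Around the members, other genes of the pathway were also uncalled between methods in limma's test without the block: 0 of 9 other G1/S cyclins and kinases, 0 of 3 CDK inhibitors, 0 of 7 pocket protein and E2F genes, 0 of 5 genes of the Max network, 0 of 13 E2F targets and 0 of 10 Myc targets. With the block 1 of these was called, beside 3.29% of all genes tested. It was the cap-binding factor gene Eif4e, with a mean log2 difference of -1.15 (adjusted p 0.0133 in limma, named after its values were seen). After sonication Eif4e had 78.8, 5.66 and 6.68 RPKM, and after tagmentation 107, 0.652 and 1.11 RPKM. It was thus higher after tagmentation in number 1 and lower in numbers 2 and 3. The blocked fit had 2 residual degrees of freedom per gene and 210 prior ones. Its p-value therefore depends mostly on the spread shared over genes, not on the disagreement between the pairs of Eif4e. Between numbers, 8 of 9, 3 of 3, 6 of 7, 4 of 5, 9 of 13 and 6 of 10 genes of these lists were called, in that order. The share was 88.1% over all genes tested and 57.7% over those with a mean of 100 RPKM or more, so these counts do not mark the lists out.

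Other cyclin and kinase genes were led by Cks1b, a small subunit of cyclin-dependent kinases, with a mean of 350 RPKM and no call between numbers (adjusted p 0.779). Cdk1, the mitotic kinase, had 71.6 and 81.7 RPKM in number 1 and 14.4 to 27.2 RPKM in the rest, and was called (adjusted p 2.42e-07). Ccne2, the paralogue of Ccne1, was not tested, with 0.0375 to 1.73 RPKM. Among CDK inhibitors, Cdkn1c (p57) had 19.7 to 90.5 RPKM, highest in number 2. Cdkn1a (p21) was at 12.2 and 7.67 RPKM in number 1 but 0.0276 and 0.0451 RPKM in number 3. Both were called between numbers (adjusted p 7.56e-04 and 3.29e-18).

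E2f4, an E2F factor that acts with pocket proteins, and Tfdp1, the dimer partner of E2F factors, were called between numbers as well, both lowest in number 1. Tfdp1 had 1.86 and 1.57 RPKM there, against 19.9 to 46.9 RPKM elsewhere. Rbl1, the pocket protein p107 and a relative of Rb1, was at 6.39 and 17.8 RPKM in number 2 and listed at 0 in the other 4 libraries. In the Max network, Mnt, a Max partner that represses, had 22.9 and 21.5 RPKM in number 1 and 5.29 to 9.50 RPKM elsewhere. Zbtb17 (Miz1), through which Myc represses, had 1.73 to 3.28 RPKM in number 1 and 12.9 to 42.4 RPKM elsewhere.

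Targets of E2F and of Myc had their highest level in different numbers. Pcna, the replication clamp, was highest in number 1 with 228 and 365 RPKM against 61.0 to 127 RPKM elsewhere, while the helicase subunit Mcm5 was highest in number 2 with 187 and 170 RPKM. Among Myc targets, Ldha, a glycolytic enzyme, had 543 to 820 RPKM and was not called between numbers (adjusted p 0.873). The nucleolar gene Npm1 had 266 to 1000 RPKM, was highest in number 1 and was called (adjusted p 0.0205). In number 3, where Myc had 1.35 and 2.26 RPKM, Ldha had 543 and 672 RPKM and Npm1 had 266 and 643 RPKM. The replicates are technical, and a link between the level of Myc and those of its targets was not tested. The median range between numbers was 0.98 for the Myc targets and 1.67 for the E2F targets, beside 2.38 for all genes. Genes with a mean of 100 RPKM or more, as 6 of the 10 Myc targets had, showed a median range of 1.00.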

How the data were processed

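The authors deposited RPKM values per gene symbol, 1 column per library, with the number of alignments of each library, per the file headers. The submitters' processing notes name mm9, CASAVA 1.7.0 and Partek, without roles. How reads were aligned, annotated, assigned to strands and handled when they matched several places is not given in the sources used here. In GENCODE M21, exons of Ccnd1, Ccnd2, Ccnd3, Cdk2, Cdk4 and Rb1 share bases with a gene on the opposite strand (Tspan31 for Cdk4), so their reads may be mixed.

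Values were tested as log2(RPKM + 1), which understates changes of low genes, for 6327 genes at 1 RPKM or more in at least 3 libraries. Limma 3.58.1 was used in R 4.3.3 (eBayes with a trend, two-sided, Benjamini-Hochberg, threshold 0.05), also run on simulated data. Same-numbered libraries were taken as pairs: the labels do not say that they share a cDNA, but after subtracting each method's mean their correlations were 0.952, 0.969 and 0.934. Reads were recovered for Ccnd1, Ccnd2, Ccne1, Rb1 and Mycn, where a gene length gave whole reads in all libraries (within 0.002 reads plus 1e-05 of the reads) and lay within 0.75 to 1.25 times the longest GENCODE transcript. Promoters were matched to RefSeq by symbol. Members, lists and tests were chosen with earlier results of these data known. Named genes were the 10 members, the 2 tested genes of each pathway list with the highest mean, any called without the block, and the gene most like each member; Ccne2, Rbl1, Eif4e and the cell type markers were named after their values were seen, so the marker lists did not follow this rule. Alternatives were other pseudocounts, filters and scalings, the block, and leaving out libraries.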

Additional observations from a re-analysis of the deposited data

How the results depend on the processing

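No member was called between methods under any of 13 alternatives, the replicate block included. Over all genes the count rose from 0 to 208 with the replicate block and stayed at 0 under the other alternatives run. Mycn, Max and Cdk4 kept their direction in all of them, at 0.53 to 1.12, 0.063 to 1.36 and 0.013 to 0.50 when each library was left out. Directions of the other members were not stable. Ccnd1 turned to -0.11 with quantile normalization and ranged from -0.40 to 0.56 when each library was left out. Cdk2 turned to 0.041 with a pseudocount of 5 and 0.059 with quantile normalization, and ranged from -0.66 to 0.57 without each library. The ranges without each library were -0.30 to 0.020 for Ccnd3, -0.21 to 0.097 for Ccne1 and -1.16 to 1.73 for Myc. Leaving out 1 library moved the median of all genes from 0.028 to between -0.15 and 0.15. Between replicate numbers, 5 members were called, and 2 to 5 without each number. Over all genes 5577 were called, 3856 to 4557 without each number, and 3411 when only the 4023 genes with means of 10 RPKM or more were tested. Scaling moved Cdk4 across the threshold, as given above. For Ccnd3, Cdk4, Myc, Max and Cdk2 no gene length could be accepted, so the reads behind them are unknown, and no count test was run. Ccnd2 had 8 to 29 reads per library and Rb1 0 to 62, so their differences between libraries were not tested.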
